A study of Mus musculus with 7 samples.

Results

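Expression of 6 genes that carry the RANKL, OPG and CSF1 signals was described in femoral cortical bone of mice. These are Tnfsf11 (RANKL), Tnfrsf11a (RANK), Tnfrsf11b (OPG), Csf1, Csf1r and Il34, chosen by symbol from the 27179 genes counted, and all 6 passed the filter on low counts that left 15080 genes for testing. The mice were females of 12 weeks on a C57BL/6 background, and the marrow had been flushed from the bone. There were 3 libraries labelled Dmp1Cre.EfnB2f/f, in which Cre recombinase driven by a Dmp1 promoter fragment is meant to remove floxed Efnb2 in osteocytes and late osteoblasts, and 4 labelled Dmp1Cre, from littermates or cousins that carried the same Cre and unfloxed Efnb2. Each library is taken as 1 mouse, since neither the labels nor the study's methods mention pooling. Mice 1 and 2 of Dmp1Cre.EfnB2f/f were from a single parent cross, as were controls 1 and 2 from a different cross, while mouse 3 and control 3 had the same parents and control 4 had parents of its own. The study collected its samples on 2 days, 2 mice labelled Dmp1Cre.EfnB2f/f and 3 controls on day 1 and 1 of each on day 2. The labels do not tie the days to single mice, so the day was in no fit. Any difference between the days is part of the spread in each comparison.

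RANKL is a cytokine of the tumor necrosis factor family, made in bone by osteocytes, osteoblast-lineage cells and marrow stromal cells. It binds RANK on myeloid precursors and drives them to become osteoclasts, the cells that resorb bone, while OPG is a soluble decoy receptor that binds RANKL and keeps it from RANK. CSF1 and IL-34 are the known ligands of the CSF1 receptor, through which monocytes, macrophages and osteoclast precursors survive and divide, and CSF1 signalling raises RANK on those precursors. Bulk bone RNA holds the ligand-making and the receptor-bearing cells together, so fewer cells of a type and less RNA per cell cannot be told apart.

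On GRCm38, Tnfsf11 (Entrez 21943) lies on chromosome 14 from 78277446 to 78308043, Tnfrsf11a (21934) on chromosome 1 from 105780673 to 105849444, Tnfrsf11b (18383) on chromosome 15 from 54250619 to 54278484 Csf1 (12977) on chromosome 3 from 107741048 to 107760469 and Il34 (76527) on chromosome 8 from 110741829 to 110805949. The counts sum the exons of a gene. Csf1 overlaps Gm40121, and Il34 overlaps Gm15894, Gm15895 and Gm39250, with which reads could be shared, since the strand setting of the counting was not given in the sources used here.

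The start regions of 3 of the 6 genes were in the RefSeq table of promoters (GRCm38.p6) and are printed so that the start sites of the RANKL, CSF1 and RANK genes can be set side by side. Tnfrsf11b, Csf1r and Il34 had no entry. Each window runs 5′ to 3′ along the gene from 250 bases before to 50 bases after the start site used for it. For Tnfrsf11a that site lies downstream of 105780673, the gene start given above. Capitals mark matches on either strand to the TATA box core TATAA, the CCAAT box, the GC box GGGCGG, the RUNX core ACCACA or the AP-1 motif TGANTCA. The windows are chr14:78307994-78308293 (minus strand) for Tnfsf11, chr3:107760420-107760719 (minus strand) for Csf1 and chr1:105780473-105780772 (plus strand) for Tnfrsf11a.
Tnfsf11: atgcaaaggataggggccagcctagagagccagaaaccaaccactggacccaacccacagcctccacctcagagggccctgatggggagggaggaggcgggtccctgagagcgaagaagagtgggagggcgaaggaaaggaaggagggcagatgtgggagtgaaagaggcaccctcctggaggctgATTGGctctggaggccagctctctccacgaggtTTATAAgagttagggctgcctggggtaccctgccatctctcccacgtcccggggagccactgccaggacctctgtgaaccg
Csf1: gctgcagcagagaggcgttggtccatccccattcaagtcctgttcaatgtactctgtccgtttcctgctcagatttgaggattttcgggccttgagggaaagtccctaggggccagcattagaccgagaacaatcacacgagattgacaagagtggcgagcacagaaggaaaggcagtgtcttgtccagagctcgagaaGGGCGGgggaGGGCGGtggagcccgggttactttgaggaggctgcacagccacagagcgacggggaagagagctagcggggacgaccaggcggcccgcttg
Tnfrsf11a: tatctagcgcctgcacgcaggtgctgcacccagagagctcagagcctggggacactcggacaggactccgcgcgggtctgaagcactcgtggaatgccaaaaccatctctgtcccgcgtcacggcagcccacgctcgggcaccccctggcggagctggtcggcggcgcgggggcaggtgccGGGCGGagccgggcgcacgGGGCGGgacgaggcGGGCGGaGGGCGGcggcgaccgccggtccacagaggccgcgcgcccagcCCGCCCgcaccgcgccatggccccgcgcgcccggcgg
The Tnfsf11 window held 1 stretch of TTATAA, which matches TATAA on both strands and begins 31 bases before the start, and 1 CCAAT match, and no GC box. The Csf1 window held 2 GC boxes and the Tnfrsf11a window 5, and neither held TATAA or CCAAT. Bases G and C made up 61.7% of the Tnfsf11 window, 58.7% of the Csf1 window and 76.7% of the Tnfrsf11a window. Of the 32851 promoters in the table, 24.9% held TATAA, 37.4% CCAAT, 35.7% GGGCGG, 16.8% ACCACA and 7.81% TGANTCA. The last 2 motifs matched in 0 of the 3 windows, which says only that these letters are not there. A match is a description of the sequence and no evidence that a factor binds.

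Total counts ranged from 18119947 to 19119250 in mice labelled Dmp1Cre.EfnB2f/f and from 17245556 to 22075778 in the controls. The targeted gene Efnb2 had 322, 239 and 224 counts in the former and 164, 139, 110 and 117 in the latter, so that it was not lower but higher in each library labelled Dmp1Cre.EfnB2f/f than in each control (log2 fold change 0.96, standard error 0.21, edgeR adjusted p = 0.510). The difference passed the threshold in DESeq2 (adjusted p = 0.0341) and in the limma pipeline of the study run without its day block (adjusted p = 0.0161). Reads of all its exons are summed, so the floxed exon cannot be read apart. By PCR on the targeted region in sorted osteocytes, the study reported effective targeting of Efnb2, which other cells kept. Whole-gene counts of bulk bone cannot tell whether osteocytes lost it. Since these counts do not show the loss that the label names, libraries are named by their labels. Every direction given here is a direction between labels. On the first principal component of log2 CPM (counts scaled to library size), which held 56.9% of the variance, controls 1 and 4 (scores 41.1 and 62.2) stood apart from the other 5 libraries (-37.4 to -1.98). Osteoblast and osteocyte markers were detected in every library, with Dmp1 at 53.6 to 222 CPM.

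Across all 7 libraries the receptor Csf1r was the most abundant of the 6 genes and the RANK, OPG and RANKL genes were the least. Levels are compared between genes as CPM per kilobase of exon, normalized by TMM. Csf1r stood at 54.9 ± 17.0 (SD, n = 7), Csf1 at 14.6 ± 2.88 and Il34 at 6.36 ± 1.06. The other 3 genes lay close together, with Tnfrsf11b at 2.68 ± 1.50, Tnfrsf11a at 2.53 ± 0.531 and Tnfsf11 at 2.28 ± 1.30. The order, taken by the mean of log2 levels, was Csf1r, Csf1, Il34, Tnfrsf11a, Tnfrsf11b, Tnfsf11. The same 7 libraries set this order and its neighbours, so the tests of neighbours describe how steady each step was over libraries. The smallest unadjusted p that the exact sign-flip permutation test can give here is 0.0156. Csf1r was above Csf1, Csf1 above Il34 and Il34 above Tnfrsf11a in 7 of 7 libraries, by 3.70-fold, 2.28-fold and 2.54-fold, and in these 3 pairs of neighbours the ranges over libraries did not overlap (adjusted p = 0.0260 for each, two-sided exact sign-flip permutation test over 128 flips, adjusted over 5 neighbour pairs). Tnfrsf11a and Tnfrsf11b (adjusted p = 0.844, same exact permutation test) and Tnfrsf11b and Tnfsf11 (adjusted p = 0.391, same exact permutation test) did not differ beyond their spread. Tnfrsf11a was above Tnfrsf11b in 4 of 7 libraries and Tnfrsf11b above Tnfsf11 in 3 of 7. Without correction for length Tnfrsf11a, which has longer exons, came before Il34. In the plot of levels per length Il34 is apart from Tnfrsf11a, while the ranges of Il34 (4.97 to 7.93) and Tnfrsf11b (1.41 to 5.47) overlap.

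**Figure D1:**
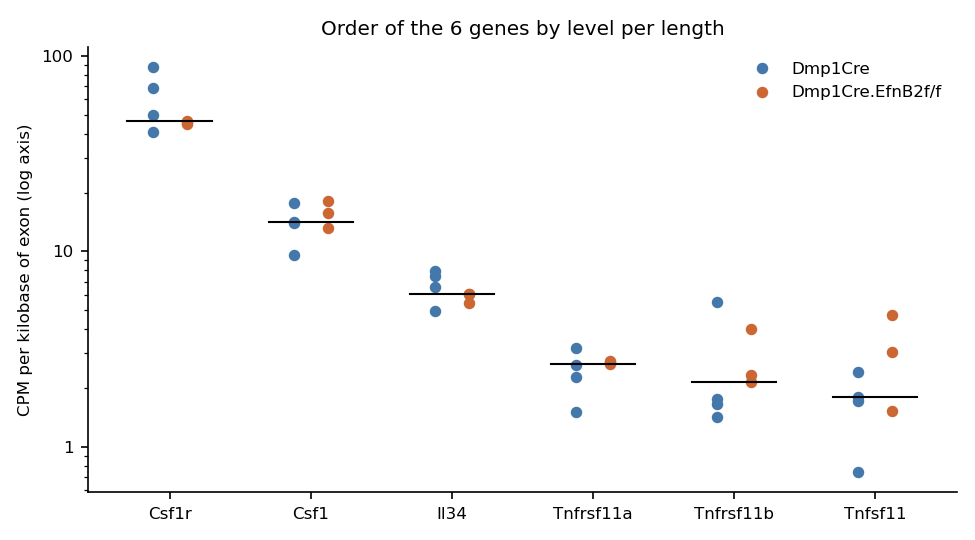
Level of the 6 genes in each of the 7 libraries, as TMM-normalized CPM per kilobase of exon on a log axis, with a dot for each library, coloured by label, and a line at the median of all 7. Csf1r lies between 41.0 and 87.6 in all libraries, above Csf1, Il34 and the 3 genes of RANK, OPG and RANKL, whose ranges overlap.

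None of the 6 genes changed with genotype at an adjusted p-value under 0.05 in edgeR's quasi-likelihood test (Benjamini-Hochberg adjustment over all genes tested). In that test 0 of them passed at an unadjusted p-value under 0.05. Of all 15080 genes tested, 0% passed the adjusted threshold and 9.66% the unadjusted one. DESeq2 and the limma pipeline of the study, run without its day block, also called 0 of the 6, beside 0.477% and 15% of all genes. The groups overlapped for each of the 6 genes, whereas they did not overlap for 11.3% of all genes. The median log2 fold change of the 6 was 0.15, beside 0.01 over all genes tested.

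Tnfsf11, which encodes the osteoclast-forming ligand, had the largest difference of the 6. Its level was 10.6, 6.78 and 3.41 CPM in mice 1 to 3 labelled Dmp1Cre.EfnB2f/f, whereas controls 1 to 4 had 5.37, 4.02, 3.84 and 1.65 CPM. Mice 1 and 2 labelled Dmp1Cre.EfnB2f/f were above every control, and mouse 3 was below controls 1 to 3, including control 3 of its own parent cross. The means were 6.92 ± 3.59 CPM (SD, n = 3) and 3.72 ± 1.54 CPM (SD, n = 4), a 1.86-fold difference with a 95% interval from 0.911 to 3.79 (log2 fold change 0.89, standard error 0.45, edgeR adjusted p = 0.517). These values rest on few reads, 32 to 200 per library. The log2 fold change was 0.45 without mouse 1 labelled Dmp1Cre.EfnB2f/f and -0.17 with the parent cross as a block. Only mouse 3 and control 3 share a cross, so every difference given with that block, also for other genes, rests on these mice alone. Tnfsf11 was among the genes that varied most, since 94.8% of genes with reads in every library had a smaller standard deviation of log2 CPM.

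Tnfrsf11b, which encodes the decoy receptor OPG, spanned its whole range within the controls. It reached 11.3, 6.57 and 6.07 CPM in mice 1 to 3 labelled Dmp1Cre.EfnB2f/f, whereas controls 1 to 4 had 15.4, 4.94, 4.68 and 3.98 CPM. Control 1 was the highest of all libraries, and the other 3 controls were below all 3 mice labelled Dmp1Cre.EfnB2f/f. The fold difference was 1.10 (95% interval 0.501 to 2.40, log2 fold change 0.13, standard error 0.50, edgeR adjusted p = 0.909). Its log2 fold change was 0.81 without control 1 and -0.20 without mouse 1 labelled Dmp1Cre.EfnB2f/f, so single libraries decided its sign. Control 1 also had the highest osteoblast and osteocyte marker sum, 39316 CPM against 8021 to 19323 CPM in the other controls. Col1a1 alone made 36421 CPM of that sum, and the part of the sum in the OPG level of control 1 was not tested.

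**Figure D2:**
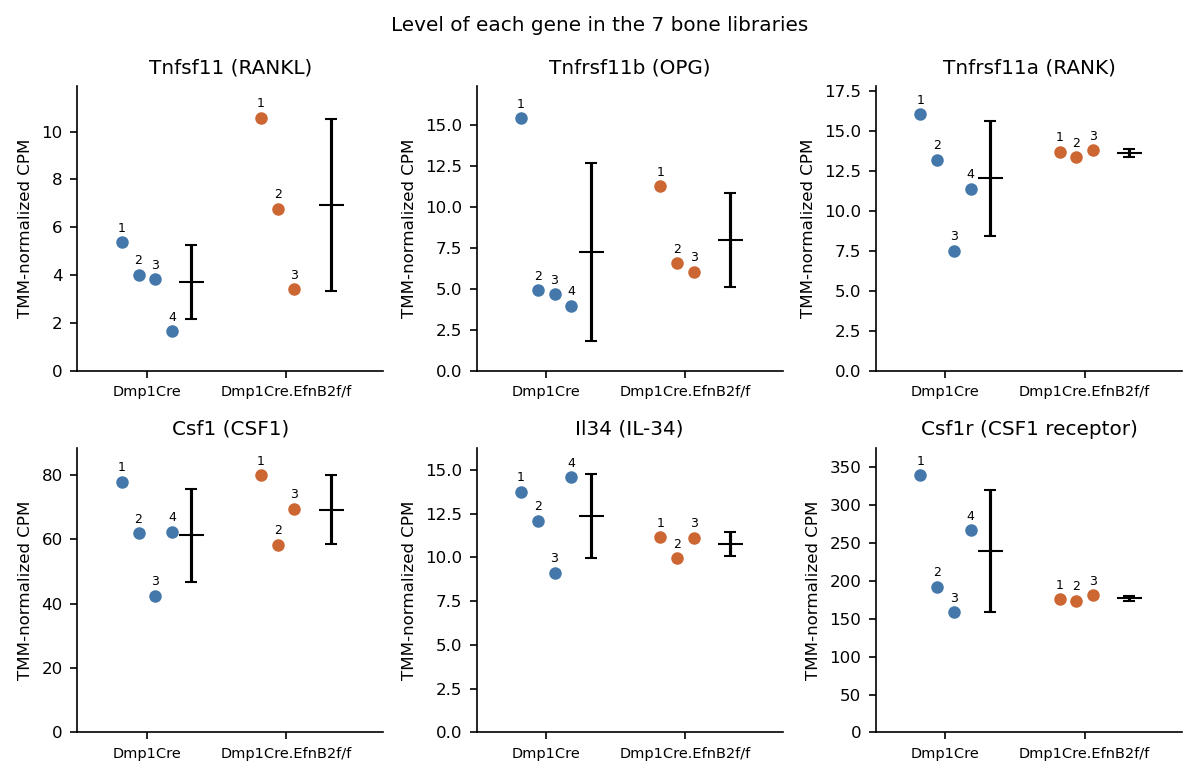
TMM-normalized CPM of the 6 genes in each library, with a numbered dot for each mouse and a bar with whiskers for the mean ± SD of 4 Dmp1Cre and 3 Dmp1Cre.EfnB2f/f libraries, on linear axes from 0. Tnfsf11 is highest in mice 1 and 2 labelled Dmp1Cre.EfnB2f/f, Tnfrsf11b and Csf1r are highest in control 1, and the groups overlap in every panel.

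Tnfrsf11a, the gene for the RANKL receptor RANK, was nearly the same in the 3 mice labelled Dmp1Cre.EfnB2f/f, at 13.7, 13.4 and 13.8 CPM. Controls 1 to 4 had 16.1, 13.2, 7.52 and 11.4 CPM, on both sides of those values. The fold difference was 1.13 (95% interval 0.762 to 1.68, log2 fold change 0.18, standard error 0.25, edgeR adjusted p = 0.753). With the parent cross as a block its log2 fold change was 0.87, and without control 3 it was 0.01.

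Csf1, the ligand made widely by stromal and bone cells, had 79.9, 58.2 and 69.4 CPM in mice 1 to 3 labelled Dmp1Cre.EfnB2f/f, whereas controls 1 to 4 had 77.9, 61.9, 42.5 and 62.4 CPM. Control 3 was below all the other libraries, and the other controls lay inside the range of mice labelled Dmp1Cre.EfnB2f/f. The fold difference was 1.13 (95% interval 0.799 to 1.60, log2 fold change 0.18, standard error 0.22, edgeR adjusted p = 0.722). On the log2 scale the difference of Csf1 was 0.04 without control 3, 0.06 without mouse 1 labelled Dmp1Cre.EfnB2f/f and 0.71 with the parent cross as a block. Il34, the alternative ligand of the same receptor, had 11.2, 9.97 and 11.1 CPM in mice 1 to 3 labelled Dmp1Cre.EfnB2f/f, whereas the controls had 13.7, 12.1, 9.13 and 14.6 CPM. In 3 of the 4 controls Il34 was above every library labelled Dmp1Cre.EfnB2f/f, and control 3 was below them. Its fold difference was 0.868 (95% interval 0.630 to 1.19, log2 fold change -0.20, standard error 0.20, edgeR adjusted p = 0.660). It was 0.02 on the log2 scale without controls 1 and 4, an alternative chosen after seeing the data.

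Csf1r (Entrez 12978, chromosome 18 of GRCm38, 61105572 to 61131139, overlapping Mir6983 and Gm52352), the receptor of monocytes, macrophages and osteoclast precursors, had 176, 174 and 181 CPM in mice 1 to 3 labelled Dmp1Cre.EfnB2f/f. Controls 1 to 4 had 339, 192, 159 and 267 CPM, with controls 1 and 4 well above the rest. The fold difference was 0.740 (95% interval 0.487 to 1.12, log2 fold change -0.44, standard error 0.26, edgeR adjusted p = 0.533). The log2 fold change was 0.01 without controls 1 and 4, which had the highest Csf1r levels of the controls, -0.04 in the limma pipeline and 0.19 with the parent cross as a block. Without Mmp9 and Itgb3, which neutrophils and platelets also express, the osteoclast markers summed to 1180 CPM in control 1 and 433 CPM in control 4, beside 555 to 614 CPM in mice labelled Dmp1Cre.EfnB2f/f, and the part of osteoclasts in the Csf1r level was not tested. The plot of genotype differences sets these alternatives beside each interval.

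**Figure D3:**
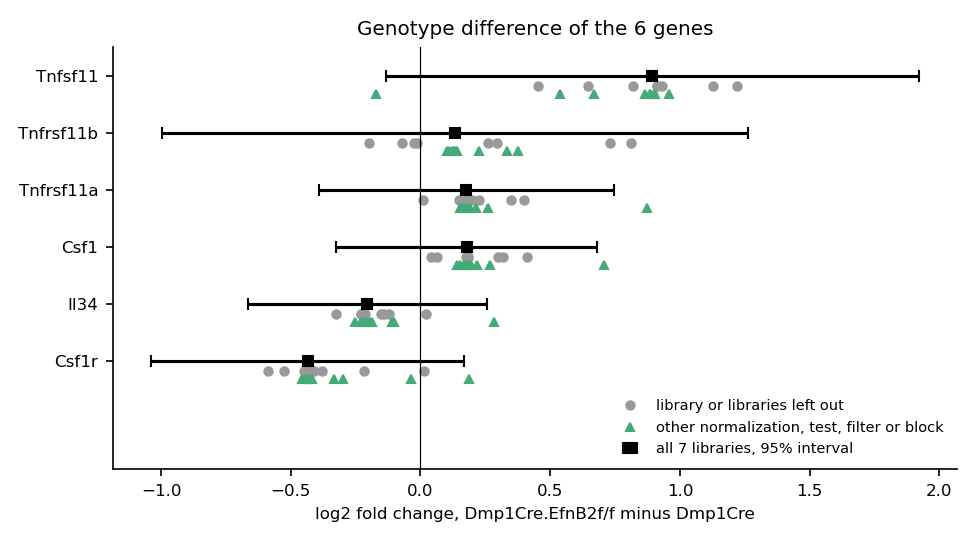
Log2 fold change of the 6 genes, Dmp1Cre.EfnB2f/f minus Dmp1Cre, with a square and its 95% interval for edgeR on all 7 libraries, dots for fits that left out 1 library or controls 1 and 4, and triangles for other normalizations, tests, filters or blocks. Every interval includes 0, and the alternatives of Tnfrsf11b, Il34, Csf1r and Tnfsf11 fall on both sides of it.

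The ratio of Tnfsf11 to Tnfrsf11b counts, the RANKL:OPG ratio, asks how much ligand message stood against decoy message within a library and does not depend on library size. It was 0.939 in mouse 1 labelled Dmp1Cre.EfnB2f/f (95% exact counting interval 0.770 to 1.14), 1.03 in mouse 2 (0.801 to 1.33) and 0.562 in mouse 3 (0.411 to 0.763). In controls 1 to 4 it was 0.348 (0.277 to 0.434), 0.813 (0.590 to 1.12), 0.821 (0.589 to 1.14) and 0.416 (0.266 to 0.635). The intervals are Clopper-Pearson intervals and cover counting error only. Controls 1 and 4 were low, controls 2 and 3 reached the range of the other group, and mouse 3 labelled Dmp1Cre.EfnB2f/f was below controls 2 and 3. The difference of mean log2 ratios was 0.55 (standard error 0.42), with p = 0.257 in a two-sided exact permutation test over 35 splits, whose smallest p is 0.0286, and 0.257 after adjustment over 3 ratios. Without controls 1 and 4, which stood apart on the first principal component and also had the lowest ratios of the controls, the difference was -0.0013. Between the only mice of both labels from a shared parent cross, mouse 3 and control 3, it was -0.55. Control 1 was low through its many Tnfrsf11b counts, 313, and control 4 through its few Tnfsf11 counts, 32. Per kilobase of exon the ratio is 1.26 times the ratio of counts in every library.

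The ratio of Csf1 to Il34, between the ligands of the CSF1 receptor, was higher in each library labelled Dmp1Cre.EfnB2f/f than in each control. It was 7.16, 5.84 and 6.24 in mice 1 to 3 labelled Dmp1Cre.EfnB2f/f, whereas controls 1 to 4 had 5.67, 5.11, 4.65 and 4.28. The groups did not overlap, but mouse 2 and control 1 were close, with counting intervals of 5.01 to 6.85 and 4.99 to 6.46. The difference of mean log2 ratios was 0.38 (standard error 0.12), a 1.30-fold difference (p = 0.0571, two-sided exact permutation test, and 0.0857 adjusted over 3 ratios), which did not pass the threshold, since 1 other split gave at least as large a difference. Among single genes the groups did not overlap for 11.3% of those tested, and that share was not computed for ratios. The difference was 0.39 without controls 1 and 4 and 0.42 within the shared parent cross.

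The ratio of Tnfrsf11a to Csf1r, between the receptors of the osteoclast lineage, also did not overlap between the labels. Single genes did not overlap in 11.3% of cases, and the share among ratios is not known. It was 0.0778, 0.0767 and 0.0761 in mice 1 to 3 labelled Dmp1Cre.EfnB2f/f, whereas controls 1 to 4 had 0.0473, 0.0685, 0.0473 and 0.0426. The 3 former values were within counting error of each other, while control 2 was nearer to them than to the other controls. The difference of mean log2 ratios was 0.60 (standard error 0.15), a 1.52-fold difference (p = 0.0571, two-sided exact permutation test, and 0.0857 adjusted over 3 ratios), which did not pass the threshold either. It was 0.43 without controls 1 and 4 and 0.69 within the shared parent cross. The 6 macrophage and monocyte markers summed to 1542 to 2129 CPM in mice labelled Dmp1Cre.EfnB2f/f, beside 2213 to 3184 CPM over the controls, but most of that was Lyz2, which neutrophils also express. The other 5 summed to 302 to 351 and 308 to 429 CPM, which overlap, and leaving genes out of the marker sums was chosen after seeing the data. The part of these cells in the ratio was not tested. The plot of ratios shows all 3 by library.

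**Figure D4:**
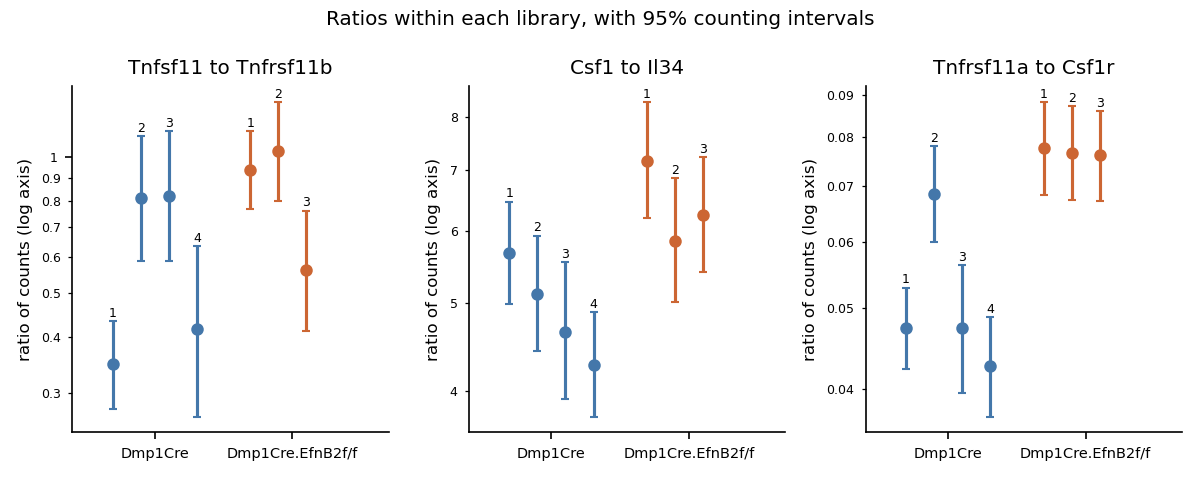
Ratio of counts of Tnfsf11 to Tnfrsf11b, Csf1 to Il34 and Tnfrsf11a to Csf1r in each library, on log axes, with a numbered dot for each mouse and a bar for its 95% exact counting interval. The RANKL:OPG ratios of the labels overlap, and in the other 2 panels the dots of Dmp1Cre.EfnB2f/f are above all control dots.

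Genes that act around these signals also did not pass the test. In 4 pathway lists with 33 genes, all tested, 0 passed at an adjusted p-value under 0.05 with edgeR, 1 was higher and 1 lower at an unadjusted p-value under 0.05, beside 4.64% of all genes higher and 5.03% lower, and the median log2 fold change was -0.07. Groups did not overlap for 1 gene on the higher and 2 genes on the lower side, beside 5.04% and 6.29% of all genes. The limma pipeline called 4 of the 33, Lgr4, Mmp14, Il6st and Osmr, each higher in mice labelled Dmp1Cre.EfnB2f/f, in a fit that called 7.53% of all genes higher, while DESeq2 called 0.

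Among 6 binding partners and sheddases, Lgr4, a receptor that binds RANKL besides RANK, had 35.3, 31.5 and 30.2 CPM in mice 1 to 3 labelled Dmp1Cre.EfnB2f/f, whereas controls 1 to 4 had 27.6, 23.2, 20.6 and 13.7 CPM. These groups did not overlap (log2 fold change 0.60, standard error 0.23, edgeR adjusted p = 0.510). Mmp14, a membrane protease that can shed RANKL, had a log2 fold change of -0.07 in edgeR, where control 1 reached 182 CPM beside 57.9 to 97.9 CPM in the other libraries, and 0.65 in the limma pipeline. Tnfsf10, the TRAIL ligand that OPG also binds, had a log2 fold change of 0.51 (edgeR adjusted p = 0.517). In the list of 7 receptors whose ligands induce RANKL, 6 had a log2 fold change above 0, beside 51.3% of all genes tested, and 0 passed the test. The lowest of the 6 were Ptger4 (0.017) and Il11ra1 (0.018). The parathyroid hormone receptor Pth1r had 52.4, 51.4 and 51.1 CPM in mice labelled Dmp1Cre.EfnB2f/f, beside 27.7 to 120 CPM over the controls. Osmr, the oncostatin M receptor, had a log2 fold change of 0.49 and Il6st, the signal chain shared by the interleukin-6 family, 0.27 (edgeR adjusted p = 0.517 and 0.642).

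Downstream of RANK, 0 of 14 genes passed at either threshold, and their median log2 fold change was -0.09. Nfatc1, the main transcription factor of osteoclast formation, had 86.8 ± 1.16 CPM (SD, n = 3) in mice labelled Dmp1Cre.EfnB2f/f, beside 94.9 ± 18.8 CPM (SD, n = 4) for the controls, and Traf6, the adaptor that RANK recruits, had 50.4 ± 4.37 and 43.6 ± 4.71 CPM. Among 6 genes of CSF1 receptor expression and signalling, 5 had a log2 fold change under 0 and 1 above it, beside 51.3% of all genes tested above 0. Their median log2 fold change was -0.33. Spi1, which encodes the PU.1 factor that switches on Csf1r, had the lowest (-0.61, standard error 0.25, edgeR adjusted p = 0.510), and it was -0.16 without controls 1 and 4. The adaptor Grb2 (-0.39) and the ubiquitin ligase Cbl (-0.28) were those whose groups did not overlap on the lower side.

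Markers of the cells that send and receive these signals varied between libraries. The 9 osteoclast markers summed to 1875 to 1996 CPM in mice labelled Dmp1Cre.EfnB2f/f, beside 1309 to 3097 CPM over the controls, with 0 of 9 past either threshold. Most of that sum was Mmp9 and Itgb3, and the other 7 summed to 555 to 614 and 195 to 1180 CPM. Ctsk, the collagen-degrading protease of osteoclasts, had 268, 265 and 222 CPM in mice 1 to 3 labelled Dmp1Cre.EfnB2f/f, whereas controls 1 to 4 had 446, 208, 71.5 and 133 CPM. The range of the 11 osteoblast and osteocyte markers, 8189 to 13564 CPM, lay inside that of the controls, 8021 to 39316 CPM. Most of each sum was the collagen gene Col1a1, at 6670 to 12108 CPM and 6812 to 36421 CPM. The osteocyte marker Dmp1 had 150, 83.4 and 81.5 CPM in mice 1 to 3 labelled Dmp1Cre.EfnB2f/f, whereas controls 1 to 4 had 222, 72.3, 53.6 and 81.7 CPM. The 5 marrow stromal and adipocytic markers summed to 1583 to 2158 CPM in mice labelled Dmp1Cre.EfnB2f/f, beside 1200 to 1720 CPM over the controls, with a median log2 fold change of 0.32.

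Markers of blood cells and muscle also varied. In edgeR 0 of those tested, and 0% of all genes, passed at an adjusted p-value under 0.05. At an unadjusted p-value under 0.05, 3 of 4 erythroid markers were lower, beside 5.03% of all genes. On the higher side were 3 of 5 muscle, 1 of 5 B cell and 1 of 3 endothelial markers, beside 4.64%. The limma pipeline called Alas2, Klf1 and Mpo lower. It called Acta1, Ckm, Myh4, Tnnt3, Pecam1, Cdh5, Ebf1, Cd79b and Pax5 higher, in a fit that called 15% of all genes. DESeq2 called none of these. The sums of the 4 erythroid and of the 4 neutrophil markers did not overlap, at 2690 to 7158 and 5713 to 6787 CPM in mice labelled Dmp1Cre.EfnB2f/f, beside 8176 to 23871 and 7597 to 9772 CPM over the controls. The sums of the other lists overlapped, at 18038 to 29804 against 8585 to 18783 CPM for 5 skeletal muscle markers, 216 to 257 against 172 to 223 CPM for 3 endothelial markers and 260 to 299 against 188 to 296 CPM for 5 B cell markers. No marker of any list was at 0 in any library. The part of these cells in the levels of the 6 genes was not tested.

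**Figure D5:**
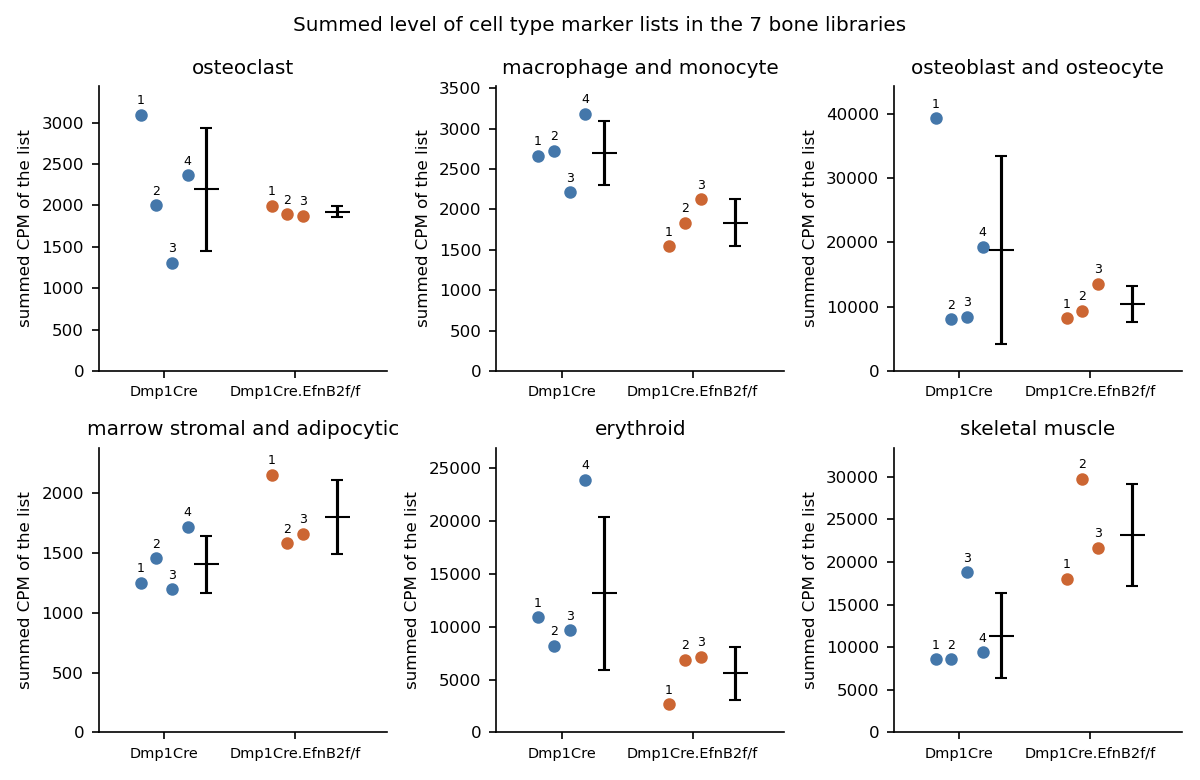
Summed TMM-normalized CPM of 6 cell type marker lists in each library, with a numbered dot for each mouse and a bar with whiskers for the mean ± SD of each label, on linear axes from 0. The macrophage and monocyte and the erythroid sums of the 3 Dmp1Cre.EfnB2f/f libraries are below those of all controls, and control 1 has the highest osteoclast and osteoblast and osteocyte sums.

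The genes with the most similar profile over the 7 libraries, by Pearson's r of log2 CPM, are given as a description, since with so few libraries many genes reach a high r and all share library, depth and the libraries that stand apart. For Tnfrsf11a they were Ocstamp (r = 0.980), which osteoclast precursors need to fuse, Ppt1 (0.976), a lysosomal enzyme, and Serpine2 (0.971), and 54 genes had an r of at least 0.9. For Csf1r they were 2310022B05Rik (0.988), the transcription factor Klf2 (0.988) and Agap1 (0.986), among 393 genes. For Tnfsf11 they were Eva1a (0.984), Ppfibp1 (0.983) and Snrk (0.980), among 215 genes. For Tnfrsf11b they were Tanc1 (0.989), Tns2 (0.984) and Ctgf (0.980), a secreted matrix-associated protein, among 117 genes. For Csf1 they were Wscd1 (0.969), Fam78b (0.966) and 4833432E10Rik (0.966), among 47 genes, and for Il34 they were Cmtm3 (0.980), Asic1 (0.977) and H2-Ke6 (0.975), among 176 genes.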

How the data were processed

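RNA of the femoral cortical bone of 7 mice was sequenced from TruSeq RNA libraries as 100-base paired-end reads. The authors converted base calls with bcl2fastq 2.17.1.14, mapped the reads to mm10 with Rsubread, and counted them with featureCounts on the annotation built into Rsubread. They deposited raw counts per Entrez gene, which were not normalized, filtered or pooled, with the exon length of each gene. The aligner version and strand setting were not given in the sources used here. The series table and single files held identical counts. Where symbols differed, in 26 genes, those of the single files were used.

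The 16302 genes that reached 0.65 CPM in 3 or more libraries were kept, and 1222 were left out by class after the study's list (immunoglobulin segments, predicted and pseudogenes, Y chromosome and Xist genes), with its ribosomal genes read as ribosomal RNA and 184 genes without a symbol taken in place of its obsolete identifiers. The 15080 left were tested with edgeR 4.0.16 (TMM, robust quasi-likelihood test, Benjamini-Hochberg adjustment, threshold 0.05) in R 4.3.3, with DESeq2 1.42.0 and the limma 3.58.1 pipeline of the study, without its day block, as alternatives. The study blocked on the day of collection, which the labels do not give. The edgeR step was checked on simulated counts. Ratios and the order of levels were compared with exact permutation tests. At these depths precision is limited by the number of mice and the spread between them, and low counts add counting error for Tnfsf11 and Tnfrsf11b. Replicates differed by more than sampling noise (chi-square per degree of freedom 29.0 to 227).

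The 6 genes and the gene lists were chosen with earlier results of these data known. Named besides them are Efnb2 and, for each of the 6, the 3 genes with the most similar profile.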

Additional observations from a re-analysis of the deposited data

Results flagged for a closer look

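Among 22 measures checked in the 4 controls for a sample far from the others (levels of the 6 genes, the 3 ratios and the sums of 13 gene lists), 2 stood out, where chance gives about 1.1. Tnfrsf11b was far higher in control 1 (15.4 CPM) than in the other controls (3.98 to 4.94 CPM), with a gap of 0.916 of the range of the group, above the critical value of Dixon's test. The skeletal muscle markers summed to 18783 CPM in control 3 and 8585 to 9401 CPM in the other controls, a gap of 0.920 of the range.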

How the results depend on the processing

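The count of 0 of the 6 genes past the threshold held under every alternative run, and the log2 fold changes of Tnfrsf11a and Csf1 kept their sign. With the parent cross as a block, where the difference rests on mouse 3 and control 3 alone, Tnfsf11 was -0.17, Csf1r 0.19 and Il34 0.28. Tnfrsf11b was 0.81 without control 1, -0.20 without mouse 1 labelled Dmp1Cre.EfnB2f/f and -0.01, -0.03 and -0.07 without control 2, 3 or 4. Without controls 1 and 4, chosen after seeing the data, Csf1r was 0.015, Il34 0.021 and the log2 RANKL:OPG difference -0.0013 (exact permutation p = 1), and within the shared parent cross that difference was -0.55. The pathway lists had 4 calls in the limma pipeline and 0 elsewhere. The cause of these changes was not tested. With each library left out in turn the log2 difference was 0.32 to 0.82 for RANKL:OPG, 0.30 to 0.45 for Csf1 to Il34 and 0.52 to 0.75 for Tnfrsf11a to Csf1r, with no p under 0.0667, the smallest that 2 against 4 allow in an exact permutation test. Of the order of levels, 0 to 0 neighbour pairs passed with a library left out, since 6 libraries cannot give an adjusted p under 0.0521 for 3 of 5 pairs, and 2 pairs passed without length. Between mice of the same replicate number, deviations from the mean of each label had correlations of -0.15, 0.08 and -0.45. These values carry no test and cannot settle whether the numbers pair the mice, of which only mouse 3 and control 3 had the same parents. A replicate block gave 0.54 for Tnfsf11 and 0.41 for the RANKL:OPG ratio and changed no call of the 6 genes. Over all genes edgeR called 0, DESeq2 24 higher and 48 lower, and the limma pipeline 1135 and 1120.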
